A study of Homo sapiens with 8 samples.

Results

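The 5 genes whose proteins drive epithelial-mesenchymal transition (EMT), namely SNAI1, SNAI2, ZEB1, ZEB2 and TWIST1, were examined for binding of CHD4. Each locus was taken as the span of the gene in hg19 plus 100 kb on either side, and all peaks that touched such a window were counted, whatever their strength. The 5 windows covered 1.36 Mb and held 51 of the 36876 peaks deposited for 6 libraries, which merged into 29 of 18808 regions. The rule that set the loci used no measured value of these libraries, but they were chosen with earlier results of these data known.

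The cells were SCC9, an established squamous carcinoma line of the tongue, and CHD4 was mapped in them by chromatin immunoprecipitation followed by sequencing (ChIP-seq). The libraries lacZ 1, lacZ 2 and lacZ 3 came from cells labelled as lacking DOC1, and DOC1 1, 2 and 3 from cells labelled as having it. How DOC1 was supplied, and whether the numbered libraries came from separate cultures, is not given in the sources used here, so a p-value speaks only for the scatter among the libraries at hand, part of which could be technical. The 2 IgG libraries of the series were not analysed here, and no RNA was measured, so levels of the 5 genes are unknown.

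CHD4 is the ATP-driven motor of NuRD, the nucleosome remodelling and deacetylase complex, which moves nucleosomes and removes acetyl groups from histones. DOC1, encoded by CDK2AP1, is a small subunit of that complex. SNAI1 and SNAI2 are zinc finger repressors, ZEB1 and ZEB2 are zinc finger and homeodomain proteins, and TWIST1 is a basic helix-loop-helix factor. All of them bind E-box sequences and lower E-cadherin and other epithelial genes when cells turn mesenchymal. The ZEB2 and TWIST1 proteins are also known partners of NuRD. The design asked how NuRD binding differs when DOC1 is missing.

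The lists held 7027, 2812 and 4723 peaks in lacZ 1, 2 and 3, and 7834, 3448 and 11032 in DOC1 1, 2 and 3. The median summit carried between 15 and 38 reads, as solved from the deposited fold and p-value of each peak. DOC1 2 stood apart: 61.2% of its regions held a peak of no other library, against 5.71% to 36.9% in the other 5. It also had 7.42% of its peaks on chromosome 13, against 1.32% to 1.57% in the other 5. A library without a peak at a locus had no site past the authors' threshold there (largest q-value listed 0.00972), which does not show that CHD4 was absent.

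The starts of ZEB1 and ZEB2 have a promoter sequence in RefSeq's table for GRCh38.p14, and both had a CHD4 summit within 1 kb in 1 library. They are shown because EMT factors are themselves targets of E-box proteins; capitals mark CACCTG or its other strand CAGGTG, the E-box preferred by the SNAI and ZEB families. Each runs from 250 bases before to 50 bases after the listed start. ZEB1 has 7 listed starts, and the one shown lies nearest (53 bp) to the length of the hg19 span. That of ZEB2 differs from it by 222 bp.
ZEB1, chr10:31318966-31319265, plus strand, GRCh38.p14: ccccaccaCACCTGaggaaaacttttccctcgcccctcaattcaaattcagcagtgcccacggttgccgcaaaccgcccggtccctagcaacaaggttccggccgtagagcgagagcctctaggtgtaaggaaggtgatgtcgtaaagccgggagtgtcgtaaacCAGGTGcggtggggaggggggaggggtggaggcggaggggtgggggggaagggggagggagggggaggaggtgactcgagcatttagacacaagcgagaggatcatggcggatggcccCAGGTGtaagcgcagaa
ZEB2, chr2:144520070-144520369, minus strand, GRCh38.p14: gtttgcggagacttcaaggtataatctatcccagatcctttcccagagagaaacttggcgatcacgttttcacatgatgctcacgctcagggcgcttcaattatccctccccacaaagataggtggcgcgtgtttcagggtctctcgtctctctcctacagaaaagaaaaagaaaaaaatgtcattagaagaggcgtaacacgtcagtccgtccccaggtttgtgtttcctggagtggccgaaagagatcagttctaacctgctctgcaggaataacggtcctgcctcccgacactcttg
The ZEB1 promoter shown held 3 such E-boxes, 242 and 85 bases before the start and 33 after it, and the ZEB2 promoter held 0. Promoters of the other listed ZEB1 starts held 1, 0, 0, 0, 0 and 0, so the 3 belong to the start shown and not to ZEB1 in general. Of 35116 promoters of the same 300 bp length, 20.6% had at least 1 and 0.635% at least 3. The wider class CANNTG, which includes these, occurred 3 times at the ZEB1 start shown and 1 time at ZEB2, and in 68.7% of all promoters. CG dinucleotides numbered 17 and 14, against a median of 14. The peaks themselves are in hg19, of which no sequence was at hand, so a match here is a property of the promoter and not of a peak.

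**Figure D1:**
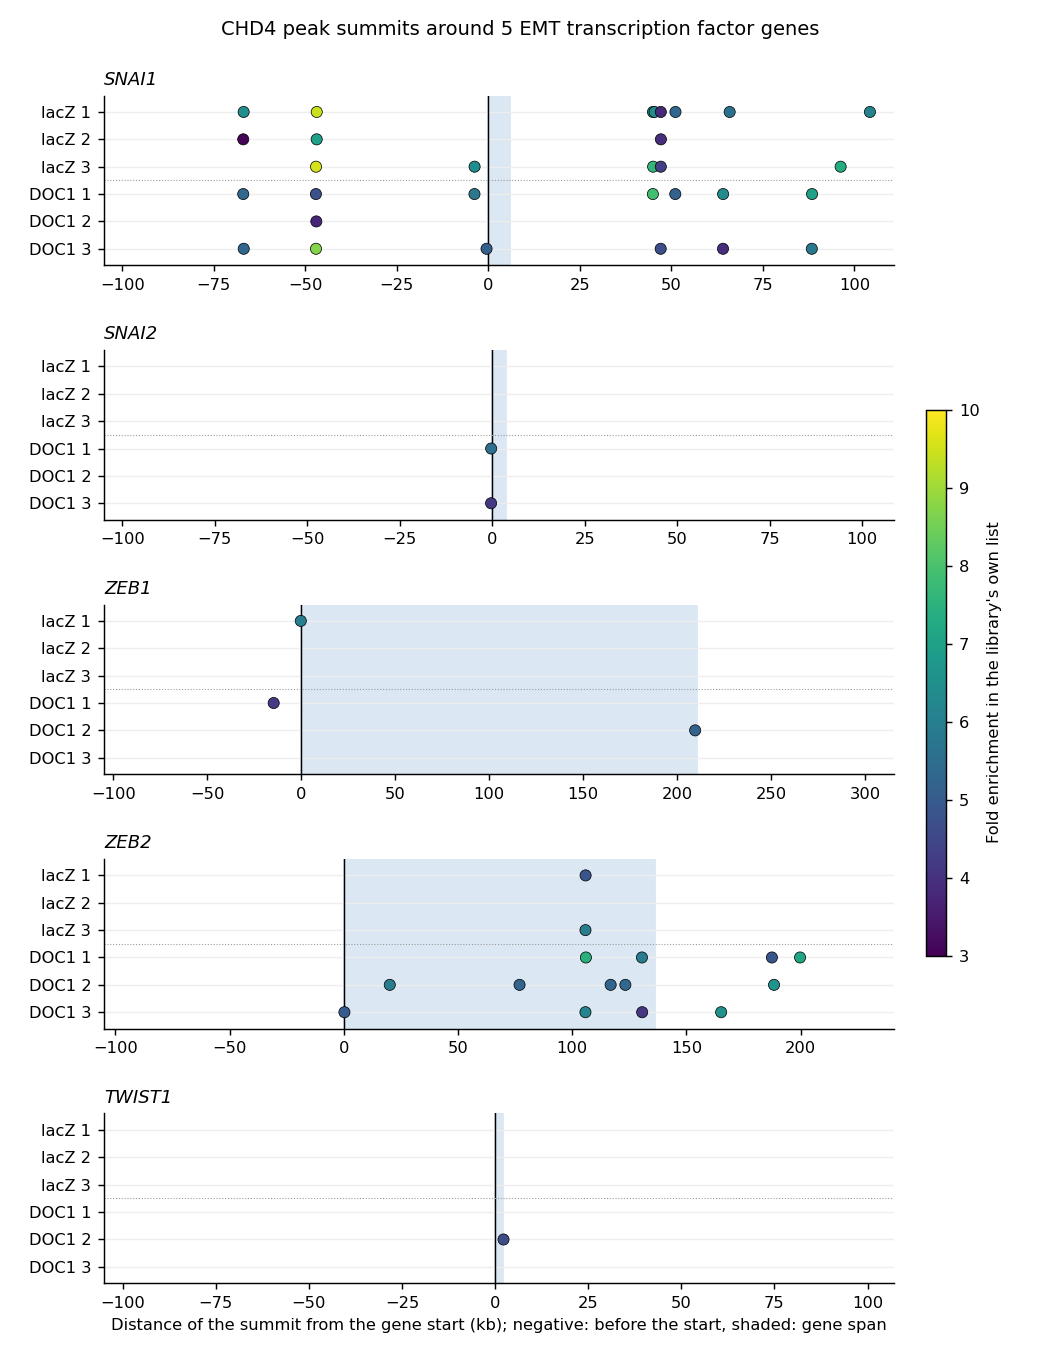
Each panel is 1 gene; the x axis gives the distance of a CHD4 summit from the gene start in kb, each row is a library, and colour is the fold enrichment in the library's own list. The SNAI1 panel has summits of all 6 libraries 47 kb before the start of the gene, in a window shared with other genes. ZEB2 has 13 summits in the DOC1 rows and 2 in the lacZ rows, and the other 3 panels hold 6 summits in all.

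CHD4 peaks were unevenly spread over the 5 loci. SNAI1 held 30 of the 51 peaks in 13 regions and ZEB2 held 15 in 11 regions. ZEB1 held 3 peaks, SNAI2 held 2 and TWIST1 held 1, although the ZEB1 window, at 410.6 kb, was the longest. Of the 30 combinations of a locus and a library, 17 had at least 1 peak and 13 had none. Peaks were present in 6 of 15 combinations without DOC1 and in 11 of 15 with it. Tiles of the 5 window lengths over the genome held a peak in 20.6% of cases in a lacZ library and in 27.9% in a DOC1 library, on average over lengths and libraries. These tiles were not matched to the windows for gene content or mappability, and 56.4% of SNAI1-sized tiles held no peak in any library. The comparison therefore does not show that EMT genes differ from other genes. Without DOC1 2 the count with DOC1 was 7 of 10, beside 31.6% of tiles. By library the windows together held 10, 3 and 6 peaks in lacZ 1, 2 and 3 and 13, 8 and 11 in DOC1 1, 2 and 3. The groups overlap, since lacZ 1 lies above DOC1 2. Set against the length of each list, the windows took 0.142%, 0.107% and 0.127% of the lacZ peaks and 0.166%, 0.232% and 0.0997% of the DOC1 peaks, and DOC1 3, with the longest list, had the lowest share of the 6. The mean difference in that share, 0.0405 percentage points, was 0.00748 without DOC1 2.

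**Figure D2:**
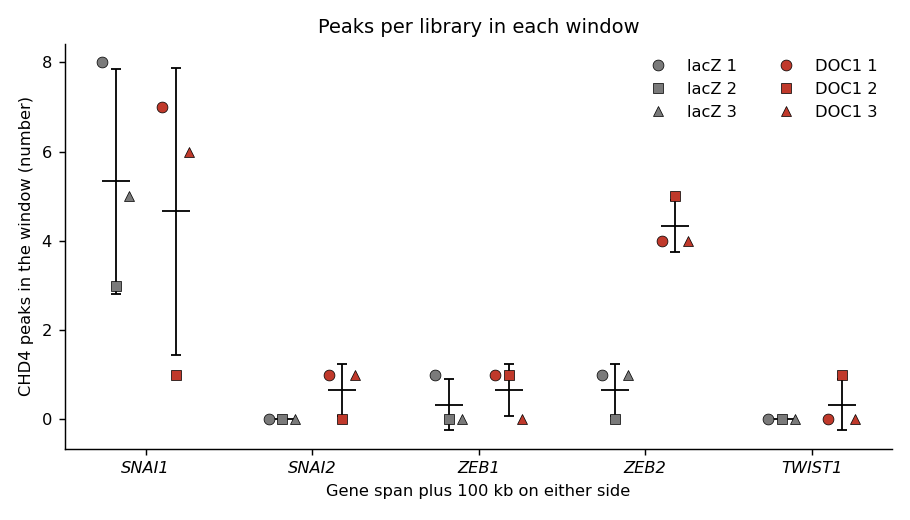
Points give the number of CHD4 peaks (y axis) of each library in the window of each gene (x axis), with the mean and SD of the 3 libraries of a group in black. At ZEB2 the DOC1 libraries have 4 or 5 peaks and the lacZ libraries 0 or 1; at the other 4 loci the groups overlap.

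A summit lay within 1 kb of a gene start in 5 of the 30 combinations, 1 of 15 without DOC1 and 4 of 15 with it, and none of the 5 starts had such a summit in more than 2 libraries. These summits were at SNAI2 in DOC1 1 and DOC1 3, at SNAI1 and ZEB2 in DOC1 3 alone, and at ZEB1 in lacZ 1 alone. TWIST1 had none. Of the 4 summits with DOC1, 3 were of DOC1 3 and 1 of DOC1 1, the 2 longest lists, so the count without DOC1 2 was 4 of 10. How often the starts of other genes had such a summit was not computed, for want of an hg19 annotation.

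SNAI2, also called SLUG, the SNAI family member also known for its role in basal keratinocytes, had a single CHD4 region, directly before its start. The region lay on chromosome 8, from 49834226 to 49834546 (hg19), 227 to 547 bp before the start at 49833999 and outside the gene span. The summit was 292 bp before the start in DOC1 1, with a fold of 5.52 from 19 reads, and 314 bp before it in DOC1 3, with a fold of 4.13 from 38 reads. Both summits fall within 22 bp of each other. No other library had a peak anywhere in the 203.8 kb window. In lacZ 1, lacZ 2 and DOC1 2 the nearest summit was 294 kb beyond the start, and in lacZ 3 it was 225 kb beyond.

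Both SNAI2 peaks stood low in their own lists, at the 39.3rd percentile of fold in DOC1 1 and the 20.1st in DOC1 3. The groups overlap at 0 peaks because DOC1 2 had none (0.667 ± 0.577 peaks with DOC1 and 0 ± 0 without, SD, n = 3, two-sided exact permutation p = 0.4). Leaving out DOC1 2, the DOC1 library with no peak, parts the groups by construction. The difference was then 1 peak per library (exact permutation p = 0.1, the smallest that 2 libraries against 3 allow). A pattern of peaks in DOC1 1 and DOC1 3 and no other library was common: it described 9.66% of all regions, and these 2 lists were the longest of the 6. In lists cut to an equal length of 2812 peaks, neither SNAI2 peak was kept and the difference was 0.

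SNAI1, which encodes SNAIL, had the 1 window of the 5 with a CHD4 peak in each of the 6 libraries, and other genes share that window. Its window held 8, 3 and 5 peaks in lacZ 1, 2 and 3 and 7, 1 and 6 in DOC1 1, 2 and 3. That is 38.9, 14.6 and 24.3 peaks per Mb without DOC1 and 33.996, 4.86 and 29.1 with it, where the whole lists average between 0.928 and 3.64. Among tiles of the same length over the genome, not matched for gene content, 0.626% reached the lacZ mean of the SNAI1 window and 1.46% reached the DOC1 mean. The groups overlapped fully (5.33 ± 2.52 against 4.67 ± 3.21 peaks in the same order, SD, n = 3, exact permutation p = 0.9). The difference (DOC1 minus lacZ) of -0.67 turned to 1.17 without DOC1 2 and to 0.667 without lacZ 1.

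None of the SNAI1 regions touched the gene itself, a span of 5.91 kb on chromosome 20 from 48599513 to 48605420. Of the 13 regions, 4 lay before the start and 9 beyond the end, and 8 held peaks of at least 2 libraries. In RefSeq's gene order the coding genes next to SNAI1 are RNF114 before it and UBE2V1 after it, so other genes share this window. Which of them a region belongs to was not assigned, since the gene table is of another build.

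A single region of the 5 windows was occupied in all 6 libraries, from 48552000 to 48552857 on chromosome 20. All 6 summits fell within 231 bp of each other, 46.9 to 47.1 kb before the SNAI1 start. The region was not assigned to SNAI1 or to a neighbour such as RNF114. Its fold was 9.42, 6.94 and 9.55 in lacZ 1, 2 and 3, from 55, 26 and 29 reads. In DOC1 1, 2 and 3 the fold was 4.75, 3.76 and 8.70, from 14, 17 and 70 reads. These folds are the authors' values, each relative to its own library. The peak stood high in its list in lacZ 1 (93.3rd percentile), lacZ 3 (90.5th) and DOC1 3 (96.5th), less so in lacZ 2 (66.6th), and low in DOC1 1 (17.1st) and DOC1 2 (8.45th). Regions found in all 6 libraries made up 2.75% of all regions, and 1 of 29 here. In lists of equal length this one lost its DOC1 1 and DOC1 2 peaks.

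SNAI1 had 2 regions with peaks of 4 libraries. The first, from 48532345 to 48532917, lay 66.8 to 67.0 kb before the start. Its fold was 6.43 in lacZ 1, 3.06 in lacZ 2, 5.35 in DOC1 1 and 5.32 in DOC1 3, and lacZ 3 and DOC1 2 had no peak. The second, from 48646230 to 48647018, lay about 47.1 kb beyond the start, with folds of 3.81, 3.88 and 4.30 in lacZ 1, 2 and 3 and 4.64 in DOC1 3. It was the single region of the windows found in every lacZ library and not in every DOC1 library.

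In each of the 5 libraries with a peak there, local background was higher at these 2 regions than at any other peak of the same library in the windows. It was 6 reads, in the scale of the peak caller, at the second region in each of the 4 libraries, and between 2.93 and 7 reads at the first, against 1.05 to 4.42 at the other 43 peaks, so the ranges overlap when libraries are pooled. The summits of the second region held 54, 39 and 36 reads in lacZ 1, 2 and 3 and 56 in DOC1 3, and their folds ranked between the 4.55th and 35.0th percentiles of their lists. The control is not stated, so whether these libraries shared one, and thus count separately for background, is unknown. The part of this background in the presence or absence of peaks was not tested.

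Closer to the start, SNAI1 had 2 sites, seen in 2 libraries and in 1. The region from 48595549 to 48595948 had a summit 3.77 kb before the start in lacZ 3 (fold 6.40, 21 reads) and 3.80 kb before it in DOC1 1 (fold 5.78, 17 reads). The region from 48598807 to 48599230 was seen in DOC1 3 alone, with its summit 501 bp before the start and a fold of 5.10 from 29 reads. No single library held both.

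Another 5 of the 9 regions beyond the gene differed in the libraries that held them. DOC1 1 and DOC1 3 alone shared a region from 48663377 to 48663796, with folds of 6.35 and 3.92, and another from 48687643 to 48688114, with folds of 6.97 and 5.80. They lay about 64.1 and 88.4 kb beyond the start. The region from 48644206 to 48644721 was seen in lacZ 1 (fold 6.40), lacZ 3 (7.63) and DOC1 1 (7.89), 45.0 kb beyond the start. The region from 48650385 to 48650740 was seen in lacZ 1 (5.37) and DOC1 1 (5.14), 51.1 kb beyond it. The last of these, from 48644755 to 48645160, was in lacZ 1 alone (fold 6.43), close beside the first lacZ 1 peak. The other 3 regions also came from 1 lacZ library each, at 65.9, 96.2 and 104.2 kb.

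ZEB2 was the locus where the number of CHD4 peaks parted the groups. Its window held 1, 0 and 1 peaks in lacZ 1, 2 and 3 and 4, 5 and 4 in DOC1 1, 2 and 3. Every DOC1 library lay above every lacZ library, by a mean difference of 3.67 peaks (4.33 ± 0.577 against 0.667 ± 0.577, SD, n = 3). The two-sided exact permutation p was 0.1, the smallest that 3 libraries against 3 allow. After Benjamini-Hochberg adjustment over all tiles of this length (4902 with a peak) it was 1. Every tile got that same adjusted value, so with 3 libraries against 3 it cannot tell a separated tile from any other. Of the 4902 tiles with a peak 3.04% showed the same separation as ZEB2 and 0.53% the opposite one. Tiles were not matched to ZEB2 for number of peaks, and over all tiles the mean was 0.537 per lacZ library and 0.823 per DOC1 library. The share therefore does not tell how often a window with as many peaks parts the groups. A ZEB2-sized tile held on average 0.286 more peaks with DOC1 than without, and 4.36% of all tiles reached the DOC1 mean of the ZEB2 window, against 25.2% that reached its lacZ mean. The separation was seen without DOC1 2 too (difference 3.33, exact permutation p = 0.1, the smallest that 2 libraries against 3 allow). In lists of equal length the groups met, with 0, 0 and 1 peaks in lacZ 1, 2 and 3 and 2, 5 and 1 in DOC1 1, 2 and 3 (difference 2.33, exact permutation p = 0.2).

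The DOC1 libraries had like numbers of peaks at ZEB2 but mostly at different positions. DOC1 1 and DOC1 3 had 4 regions each and shared 2, and none of the 5 regions of DOC1 2 was shared with any library. Of the 11 regions, 7 lay inside the gene span (chromosome 2, 145141942 to 145277958, minus strand), 4 lay beyond its end and 0 before its start. No region was found in all 3 DOC1 libraries.

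The region of ZEB2 with the most libraries, from 145171841 to 145172440, lay inside the span about 106 kb from the start. It held both lacZ peaks of the window, with folds of 4.88 in lacZ 1 (44 reads) and 5.93 in lacZ 3 (26 reads). DOC1 1 reached 7.44 (17 reads) and DOC1 3 reached 6.19 (37 reads). The peaks stood at the 26.4th and 41.7th percentiles of the lacZ 1 and lacZ 3 lists and at the 84.0th and 77.5th of the DOC1 1 and DOC1 3 lists. Ranks in lists of unequal length do not measure a change. This pattern of 2 libraries of each group described 3.52% of all regions. The other shared region, from 145147196 to 145147787, was seen in DOC1 1 (fold 5.90, 13 reads) and DOC1 3 (fold 4.11, 23 reads), about 130.5 kb from the start, and was not kept in lists of equal length.

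Among the ZEB2 regions of 1 library, the one nearest to the start was seen in DOC1 3. It ran from 145277465 to 145277815, 143 to 493 bp inside the gene, with a fold of 5.01 from 28 reads. DOC1 2 had peaks at 20.1, 76.9, 116.8 and 123.2 kb inside the gene, with folds of 5.95, 5.23, 5.24 and 5.35 and at most 20 reads. Beyond the end of the gene DOC1 2 had a peak of fold 6.62, DOC1 1 had peaks of 7.11 and 4.88 and DOC1 3 had one of 6.58. That of DOC1 3 held 45 reads, 165.2 kb from the start. The DOC1 1 peak of fold 4.88 rested on 9 reads.

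ZEB1, the other ZEB family member, had 3 CHD4 peaks. Its window, on chromosome 10 around a span from 31608101 to 31818742, held 1, 0 and 0 peaks in lacZ 1, 2 and 3 and 1, 1 and 0 in DOC1 1, 2 and 3. The groups overlapped (0.333 ± 0.577 without DOC1 and 0.667 ± 0.577 with it, SD, n = 3, exact permutation p = 1), and without DOC1 2 the difference was 0.167. No 2 libraries shared a site. The peak at the promoter, from 31607731 to 31607999, was that of lacZ 1, 102 to 370 bp before the start, with a fold of 5.97 from 26 reads. DOC1 1 had a peak 14.7 kb before the start (fold 4.18, 12 reads) and DOC1 2 one inside the far end of the gene, 209.6 kb from the start (fold 5.21, 11 reads). Of all tiles of this length 37.6% reached the lacZ mean of the ZEB1 window and 42.4% its DOC1 mean.

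TWIST1, on chromosome 7 from 19155091 to 19157295 on the minus strand, had 1 CHD4 peak in all. It was that of DOC1 2, from 19154979 to 19155231, across the far end of the short gene and 2.18 kb from its start, with a fold of 4.60 from 21 reads. That peak stood at the 25.4th percentile of the DOC1 2 list. All 3 lacZ libraries, DOC1 1 and DOC1 3 had none in the window, and without DOC1 2 both groups were at 0. Their nearest summits were 139.6, 251.2 and 139.4 kb beyond the start in lacZ 1, 2 and 3 and 222.2 and 139.5 kb in DOC1 1 and DOC1 3. Of all tiles of this length 75.1% held no peak of any lacZ library and 40.2% reached the DOC1 mean of the TWIST1 window.

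**Figure D3:**
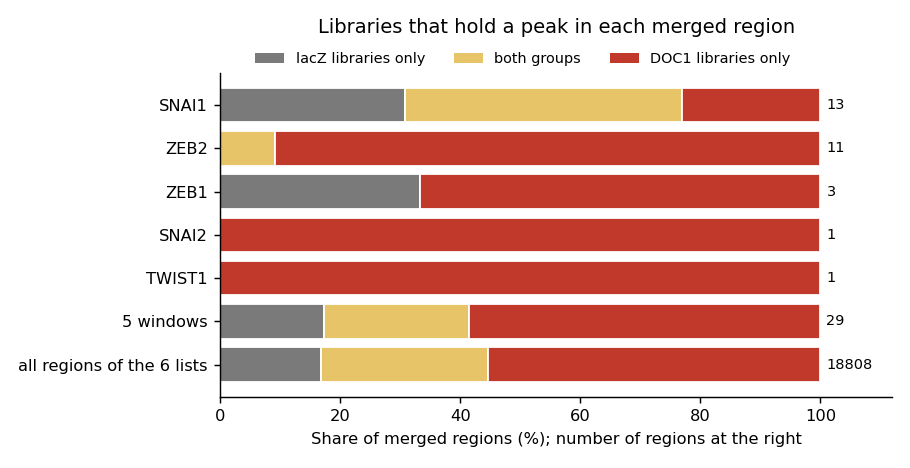
Bars give the share of merged regions (x axis, %) with peaks of lacZ libraries only, of both groups or of DOC1 libraries only, for each locus, for the 5 windows and for all regions, with the number of regions at the right. The 5 windows together (17.2%, 24.1% and 58.6%) lie close to all regions (16.7%, 27.8% and 55.4%), while SNAI1 and ZEB2 differ from each other.

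Over the 29 regions, the mix of libraries was near that of the whole genome. Regions with DOC1 peaks and no lacZ peak numbered 17 (58.6%, against 55.4% of all regions), those with lacZ peaks alone 5 (17.2%, against 16.7%) and those of both groups 7 (24.1%, against 27.8%). Regions in 1 library alone numbered 18 (62.1%, against 56.2%). Without DOC1 2 there were 22 regions, 10 of them with DOC1 peaks and no lacZ peak (45.5%, against 49.9% of all regions) and 11 in 1 library alone (50%, against 51.8%). None had peaks in all 3 DOC1 lists and 0 lacZ lists (0.978% of all regions), nor the other way (1.18%). The 4 regions of 2 or more DOC1 libraries and no lacZ library (13.8%, against 11.5%) were all of DOC1 1 and DOC1 3: that at the SNAI2 start, 2 beyond SNAI1 and 1 inside ZEB2. Shares this near the background say nothing particular of these loci. Within the set, SNAI1 had 6 of its 13 regions in both groups and ZEB2 had 1 of 11, a difference that was not tested.

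**Figure D4:**
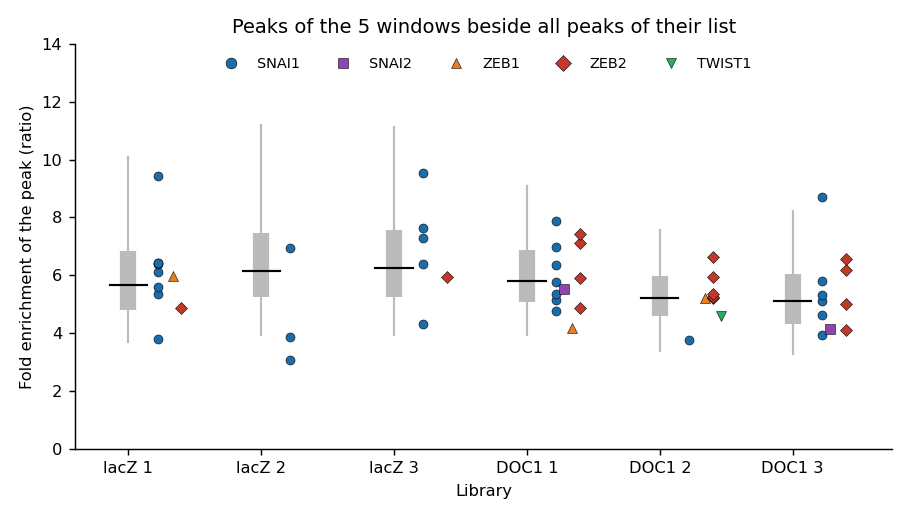
For each library (x axis) the grey box spans the 25th to 75th percentile of the fold enrichment of all its peaks (y axis, ratio), the thin line the 5th to 95th and the black bar the median; symbols are the peaks of the 5 windows. SNAI1 peaks reach from 3.06 to 9.55, and the peaks at SNAI2 and TWIST1 lie below the median of their lists.

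By strength the peaks of these loci were middling. Their median fold was at the 52.1st percentile of the list each came from, and 27 of the 51 lay above the middle of their list. The highest fold was 9.55, at the SNAI1 region of all libraries in lacZ 3, and the lowest 3.06, at SNAI1 in lacZ 2. ZEB2 peaks in DOC1 libraries had a median percentile of 54.5 (13 peaks), and 10 of them lay above the middle of their list. The 5 peaks with summits within 1 kb of a start had folds from 4.13 to 5.97, on 19 to 38 reads.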

How the data were processed

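Per the submitters' processing notes, the tools were Trimmomatic 0.33, BWA 0.7.12-r1039, SAMtools 1.2 and MACS2 2.1.1.20160309, on hg19; its settings and control are not stated in any label or file header used. The authors deposited 1 peak list per CHD4 library, not pooled. Each deposited fold is a ratio, that of summit reads over the background nearby. By the MACS2 formulas assumed here the reads are first scaled per library and 1 is added to both terms. Printed reads over background therefore do not give the fold directly. The authors also give the −log10 of a p-value and of a q-value per peak, and the deposited score is 10 times the −log10 q-value. Folds were used only within their own list.

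Peaks touching a window by 1 bp were counted, and overlapping peaks of all lists were joined into regions. Summit reads were solved from fold and p-value, assuming the MACS2 formulas and 1 scaling factor per library (for lacZ 1, 2 and 3 these were 0.476, 0.671 and 0.809, for DOC1 3 it was 0.562, otherwise 1). Whole reads within 0.01 were obtained for at least 99.97% of peaks. Reads are not independent molecules, since no molecular identifiers are named. The solver and the joining were tested on simulated data. Two-sided exact permutation tests were run on the numbers per library, over 20 assignments (fewer with a library left out). They were adjusted over tiles of the window's length that cover all chromosomes but Y up to their last peak. Adjustment over the 5 loci alone was planned and is not given, nor is a p for the windows together.

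All 5 loci, and every region with peaks of 2 or more libraries, in the gene or within 5 kb before its start, are named; those given beyond that rule were chosen after their values were seen. The members and lists were chosen with earlier results of these data known. Gene spans in hg19 came with the choice of loci. Strands are general knowledge, in accord with RefSeq's promoter table for ZEB1 and ZEB2; promoters of 2 of the 5 genes matched there. Other EMT regulators were not placed, for want of an hg19 annotation here. Alternatives were a q-value of at most 0.001, lists of equal length (2812 peaks), flanks of 50 and 200 kb, summits in place of peaks, joining within 500 bp, leaving out each library, and pairing by number. The software was numpy 2.4.6, scipy 1.17.1, pandas 2.3.3 and matplotlib 3.10.9 under Python 3.11.15.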

Additional observations from a re-analysis of the deposited data

How the results depend on the processing

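The differences are DOC1 minus lacZ in peaks per library. In lists of equal length that of the 5 windows together, 4.33, became 1, that of SNAI2, 0.667, became 0, that of ZEB2, 3.67, became 2.33, and the 1 region of all 6 libraries became 0. Cutting the longer lists takes peaks away by construction. With a flank of 50 kb the ZEB2 difference was 2.67, from a smaller window. The SNAI1 difference of -0.67 turned to 1 with a flank of 200 kb. With 1 library left out, SNAI1 ranged from -1.83 to 1.17, turning to 1.17 without DOC1 2 and to 0.667 without lacZ 1, cause not tested. ZEB2 ranged from 3.33 to 3.83, SNAI2 from 0.5 to 1, ZEB1 from 0.167 to 0.667, TWIST1 from 0 to 0.5 and the 5 windows from 2.67 to 6.17. Regions of every DOC1 and no lacZ library ranged from 0 to 4, the 4 without DOC1 2, and those of every lacZ and no DOC1 library from 0 to 1, the 1 without DOC1 3. Leaving out a library loosens that rule. Chosen after seeing the data, leaving out DOC1 2 took regions with DOC1 peaks and no lacZ peak from 17 to 10 and regions of 1 library from 18 to 11, by construction, and combinations with DOC1 that held a peak from 73.3% to 70%. In all, 140 of the 152 values under an alternative did not turn direction and moved by at most 1 SD between libraries or, for numbers of regions and shares of combinations, 1.5 times. The differences under a replicate block are among them and could not move by construction, so this count overstates how stable the results are. Same-numbered libraries had correlations of 0.00648, 0.0307 and -0.02 across regions, and pairs of unlike number had from -0.0375 to 0.0311. These values cannot tell whether same-numbered libraries were made together. With a replicate block the differences stay as they are (3.67 for ZEB2, exact sign-flip p = 0.25, the smallest 3 pairs allow). Summits of 9 to 79 reads limit how firmly a single absence can be read.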

Other observations

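Flanks of 200 kb in place of 100 kb took in more CHD4 peaks at 4 of the 5 genes, and a wider window cannot hold fewer. The ZEB2 window then held 2, 0 and 3 peaks in lacZ 1, 2 and 3 and 6, 5 and 6 in DOC1 1, 2 and 3, so the groups still did not overlap (difference 4, exact permutation p = 0.1). DOC1 2 and lacZ 2 had no further ZEB2 peak there. The SNAI1 window then held 11, 3 and 7 peaks without DOC1 and 12, 2 and 10 with it. TWIST1 had 1, 0 and 1 peaks without DOC1 and 0, 2 and 1 with it, and the added peaks of lacZ 1, lacZ 3 and DOC1 3 lay 139.4 to 139.6 kb beyond the start. SNAI2 gained none in any library.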
